A study of Homo sapiens with 16 samples.

Results

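Gene expression was compared between Hep3B hepatocellular carcinoma cells that had become resistant to Sorafenib and Hep3B cells labelled DMSO. Hep3B is an established human liver tumour line, and Sorafenib is an inhibitor of several kinases that is used to treat hepatocellular carcinoma. Of the 16 poly(A) RNA-seq libraries of the series, 6 entered the comparison, namely 2 libraries of Hep3B-IR cells, 2 of Hep3B-CR cells and 2 of Hep3B-DMSO cells. Hep3B-IR cells had been selected with increasing concentrations of Sorafenib and Hep3B-CR cells with a constantly high concentration, and both were kept in 7 µM Sorafenib. The DMSO libraries carry DMSO in their description and are given as untreated in the treatment label. Each regimen is represented by 1 resistant line, so that selection for resistance, the continued presence of the drug and the history of a single line cannot be told apart. The comparison was the mean of the IR and CR means against the DMSO mean, and weight was given to genes whose 4 resistant libraries all lay outside both DMSO libraries. Of 26258 gene IDs in the table, 15019 passed the filter on low values and were tested, and 4701 of them were both called and free of overlap. The 2 untreated parental Hep3B libraries and the 8 libraries of Huh7, another hepatocellular carcinoma line taken through the same regimens, served as side comparisons. All 16 libraries entered the fit that gave the p-values.

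Hepatocytes secrete most plasma proteins and synthesise cholesterol and lipoproteins under the control of transcription factors such as HNF4A and CEBPA, and differentiated hepatoma lines keep much of this programme. Cholesterol synthesis is set by SREBP2, which enters the nucleus when sterols in the endoplasmic reticulum are scarce and is retained there by INSIG proteins when they are plentiful. In the integrated stress response, kinases that phosphorylate the initiation factor eIF2 lower general translation and favour translation of ATF4, which induces amino acid synthesis and transport. HIF1A, the oxygen-regulated subunit of hypoxia-inducible factor, is marked for degradation by the EGLN prolyl hydroxylases when oxygen is present and otherwise induces glycolytic and angiogenic genes.

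The 6 libraries held between 52520852 and 76860251 reads assigned to genes, and the 10 highest genes of a library took between 2.71% and 6.46% of them. Replicates correlated across genes with Pearson's r of 0.995 for DMSO, 0.991 for IR and 0.992 for CR. The difference between replicates followed the GC content of the genes in part, the rank correlation over genes being 0.38 in DMSO, -0.29 in IR and 0.12 in CR cells. The summed level of 12 hepatocyte markers was 30573 and 36493 CPM (a gene's reads scaled to the library's total of assigned reads) in the DMSO libraries, 3680 and 10447 CPM in the IR libraries and 1437 and 2272 CPM in the CR libraries. Of the markers of other cell types, 5 of 6 endothelial, 4 of 7 leukocyte and 3 of 7 fibroblast markers stayed under 1 CPM in all 6 libraries, including PTPRC, CD3E, COL3A1 and DCN. The summed level of the fibroblast markers was nevertheless higher in resistant (33.2 to 87.1 CPM) than in DMSO libraries (27.5 and 23.4 CPM), as was that of 7 biliary and progenitor markers (1593 to 3262 CPM against 1223 and 1156 CPM). Of the 5 fibroblast markers tested, only COL1A1 was called higher, and PDGFRB was called lower. Of the 7 biliary and progenitor markers, 2 were called higher (PROM1 and KRT7), none was called lower and 5 were not called. In RNA from whole cultures, fewer expressing cells and less RNA per cell cannot be told apart.

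Across the 15019 genes, 2798 were called higher in resistant cells (18.6% of the genes tested) and 2088 lower (13.9%). A call required an adjusted p below 0.05 in limma's moderated test and a change of at least 0.58 in log2(CPM + 1), the scale of every log2 fold change given here. The pseudocount of 1 CPM understates the change of genes with low levels. The median change over all genes was 0.063. Complete separation of the 4 resistant from the 2 DMSO libraries was seen upward for 5004 genes (33.3%) and downward for 3719 genes (24.8%), and 2684 (17.9%) and 2017 (13.4%) of these also passed the call. For a single gene, an exact permutation test over 6 libraries cannot go below p = 0.0667, so that the p-values given are those of the fit over all genes. They measure the spread between replicate libraries in all 8 groups of the series, Huh7 included. In a limma fit on the 6 libraries alone, 2914 genes were called higher and 2210 lower. There the adjusted p of LONRF2, for example, was 0.000127 in place of 1.25e-08. The study's methods describe biological triplicates, whereas each group here has 2 libraries and the labels do not say whether these were separate cultures.

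The genes with the widest separation upward included surface receptors, adhesion molecules and a cell cycle inhibitor. AXL, a receptor tyrosine kinase of the TAM family that binds GAS6, was measured at 0.455 and 0.398 CPM in the DMSO libraries, 118 and 45.1 CPM in the IR libraries and 163 and 115 CPM in the CR libraries. ITGA3, the alpha 3 subunit of laminin-binding integrin, was measured at 2.55 and 1.96 CPM in the DMSO libraries, 189.9 and 111 CPM in the IR libraries and 486 and 521 CPM in the CR libraries. CDKN1A, which encodes the cyclin-dependent kinase inhibitor p21, was measured at 2.56 and 4.45 CPM in the DMSO libraries, 299 and 198 CPM in the IR libraries and 225 and 138 CPM in the CR libraries. These genes were chosen for their gap to DMSO. In each case the lowest resistant library also lay far above the parental libraries. Those held 0.821 and 0.760 CPM for AXL, 1.29 and 0.760 CPM for ITGA3 and 0.848 and 1.36 CPM for CDKN1A. The log2 fold change was 6.15 ± 0.32 (SE, adjusted p = 8.14e-08) for AXL, which corresponds to 259-fold in mean CPM. For ITGA3 it was 6.39 ± 0.28 (SE, adjusted p = 2.13e-08), or 145-fold, and for CDKN1A 5.56 ± 0.59 (SE, adjusted p = 1.75e-05), or 61.3-fold. Against the parental libraries, which lay below DMSO for ITGA3 and CDKN1A and above it for AXL, the changes were 5.82 for AXL, 7.08 for ITGA3 and 6.64 for CDKN1A. In GRCh37, AXL lies on chromosome 19, 41725128 to 41767671, ITGA3 on chromosome 17, 48133332 to 48167845 and CDKN1A on chromosome 6, 36644237 to 36655114.

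PFKP, the platelet isoform of the glycolytic enzyme phosphofructokinase, was nearly silent without Sorafenib, with 0.130 and 0.260 CPM with DMSO, 41.2 and 33.8 CPM in IR cells and 49.0 and 45.7 CPM in CR cells. COL12A1, a collagen that associates with fibrils, was measured at 4.33 and 2.67 CPM with DMSO, 191 and 92.8 CPM in IR cells and 437 and 439 CPM in CR cells. FUT8, which adds the core fucose to N-glycans, was measured at 4.22 and 3.55 CPM with DMSO, 153 and 136 CPM in IR cells and 103 and 106 CPM in CR cells. All 3 genes rose, by 5.17 ± 0.21 (SE, adjusted p = 1.53e-08) for PFKP, 5.78 ± 0.28 (SE, adjusted p = 4.09e-08) for COL12A1 and 4.67 ± 0.22 (SE, adjusted p = 3.41e-08) for FUT8. FUT8 differed in its parental level, 11.9 and 23.1 CPM, which lay above the DMSO libraries and below the resistant ones.

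LONRF2, a RING finger protein, gave the widest gap of all, with 97.9, 153, 65.2 and 105 CPM in the IR and CR libraries against 0.299 and 0.356 CPM with DMSO. CD109, a membrane-anchored co-receptor of TGF-beta, was measured at 111, 84.0, 95.8 and 67.1 CPM in the IR and CR libraries against 0.781 and 0.672 CPM with DMSO, and SLITRK6, a transmembrane protein best known from neurons, at 62.6, 61.3, 41.7 and 53.9 CPM in the IR and CR libraries against 0.221 and 0.206 CPM with DMSO. The changes were 6.26 ± 0.24 (SE, adjusted p = 1.25e-08) for LONRF2, 5.69 ± 0.26 (SE, adjusted p = 3.29e-08) for CD109 and 5.51 ± 0.19 (SE, adjusted p = 3.8e-09) for SLITRK6. The remaining 3 of the 12 leading genes were close to zero with DMSO: the potassium channel gene KCNK6 at 0.0390 and 0 CPM, the epithelial envelope gene SCEL at 0.117 and 0.0137 CPM and the kelch family gene KLHL4 at 0.0651 and 0.0685 CPM. Their resistant libraries held 20.0, 17.1, 31.9 and 23.7 CPM, 68.6, 45.1, 24.2 and 18.5 CPM and 22.8, 18.7, 18.5 and 20.7 CPM, respectively, again IR first. For SCEL both IR libraries lay above both CR libraries, while for ITGA3 and COL12A1 both CR libraries lay above both IR libraries.

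**Figure D1:**
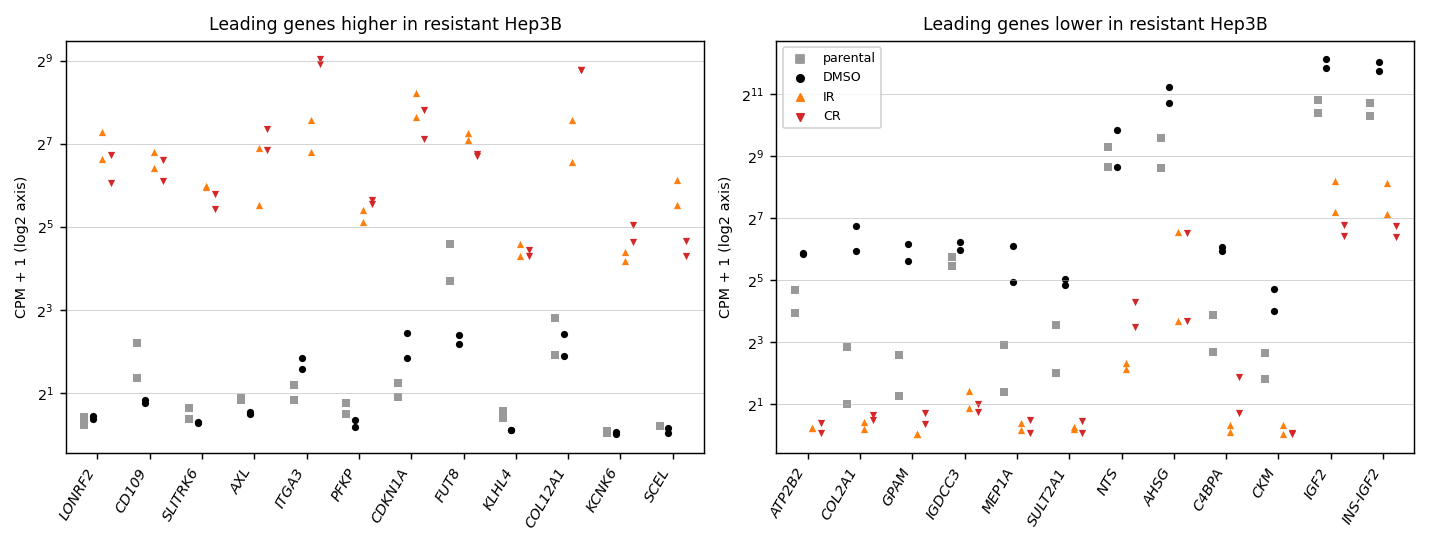
Level of the 12 leading higher (left) and the 12 leading lower genes (right), as CPM + 1 on a log2 axis, with 1 point per library for parental, DMSO, IR and CR cells. By the rule that chose these genes, all 4 resistant libraries lie on the same side of both DMSO libraries, for AXL at 118, 45.1, 163 and 115 CPM against 0.455 and 0.398 CPM.

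The genes with the widest separation downward included secreted and lipid-handling proteins. NTS, which encodes the peptide neurotensin and is often expressed by hepatocellular tumours, was measured at 917 and 397 CPM in the DMSO libraries, 3.33 and 4.02 CPM in the IR libraries and 18.5 and 10.2 CPM in the CR libraries. AHSG, the plasma glycoprotein fetuin-A, was measured at 1663 and 2389.6 CPM in the DMSO libraries, 11.7 and 93.0 CPM in the IR libraries and 11.9 and 91.4 CPM in the CR libraries. GPAM, the mitochondrial acyltransferase that starts triglyceride synthesis, was measured at 70.3 and 48.2 CPM in the DMSO libraries, 0.0268 and 0.0142 CPM in the IR libraries and 0.636 and 0.286 CPM in the CR libraries. NTS fell by 6.18 ± 0.34 (SE, adjusted p = 1.21e-07) on the log2 scale and was 72.8-fold higher in DMSO cells by mean CPM. AHSG fell by 5.85 ± 0.80 (SE, adjusted p = 0.00011) and was 39.0-fold higher in DMSO cells, and GPAM fell by 5.61 ± 0.46 (SE, adjusted p = 2.61e-06) and was 246-fold higher. The AHSG libraries split inside each regimen, replicate 1 and replicate 2 lying far apart, and all 4 lay below DMSO, as the choice of the gene required.

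IGF2, the fetal growth factor of the imprinted locus on chromosome 11, 2150342 to 2179621 (GRCh37), was measured at 3689 and 4450.3 CPM in the DMSO libraries, 146 and 292 CPM in the IR libraries and 108 and 85.3 CPM in the CR libraries. IGF2 changed by -4.83 ± 0.41 (SE, adjusted p = 3.02e-06). Its read-through partner INS-IGF2 shares exons with it, so that their reads cannot be separated. ATP2B2, a plasma membrane calcium pump, was measured at 55.8 and 57.8 CPM with DMSO, 0.161 and 0.156 CPM in IR cells and 0.0397 and 0.305 CPM in CR cells, and COL2A1, the fibrillar collagen of cartilage, at 59.9 and 107 CPM with DMSO, 0.147 and 0.327 CPM in IR cells and 0.556 and 0.381 CPM in CR cells. Both were close to zero in resistant cells, and the changes were -5.64 ± 0.29 (SE, adjusted p = 7.68e-08) and -5.92 ± 0.50 (SE, adjusted p = 3.2e-06). Their parental levels were intermediate, with 14.3 and 24.8 CPM for ATP2B2 and 0.996 and 6.11 CPM for COL2A1. The same order of DMSO above parental above resistant cells was seen for GPAM (1.40 and 4.95 CPM in parental cells), the steroid sulfotransferase gene SULT2A1 (2.95 and 10.6 CPM) and the complement inhibitor gene C4BPA (5.34 and 13.8 CPM). The other leading lower genes were the protease gene MEP1A, at 0.107, 0.313, 0.0530 and 0.381 CPM in the IR and CR libraries against 29.6 and 66.8 CPM with DMSO, the membrane protein gene IGDCC3, at 0.843, 1.68, 0.993 and 0.666 CPM in the IR and CR libraries against 73.9 and 62.1 CPM with DMSO, and the creatine kinase gene CKM, at 0.0134, 0.256, 0.0397 and 0.0190 CPM in the IR and CR libraries against 15 and 25 CPM with DMSO.

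The genes were next described by lists of liver functions and stress pathways. Of 24 secreted hepatocyte proteins tested, 22 fell and none rose, with a median change of -2.87. The library medians relative to DMSO were -2.38 and -1.64 in IR and -3.10 and -2.79 in CR cells, and -1.27 and -0.86 in parental cells. Against the parental libraries, 15 of the 24 genes were called lower, beside 11.7% of all genes lower and 18.4% higher in that comparison. ALB, the carrier protein albumin, was measured at 18745 and 19702 CPM in the DMSO libraries, 1682 and 5526 CPM in the IR libraries and 655 and 753 CPM in the CR libraries. APOA1, the main protein of high density lipoprotein, was measured at 184 and 289 CPM in the DMSO libraries, 3.73 and 30.6 CPM in the IR libraries and 1.01 and 1.85 CPM in the CR libraries, and the iron carrier TF at 1876 and 3935 CPM in the DMSO libraries, 35.1 and 539.6 CPM in the IR libraries and 15.1 and 42.0 CPM in the CR libraries. ALB fell by 3.71 ± 0.53 (SE, adjusted p = 0.000146), APOA1 fell by 5.42 ± 0.53 (SE, adjusted p = 9.33e-06) and TF fell by 5.49 ± 0.86 (SE, adjusted p = 0.000298). IR replicate 2 stood above the other resistant libraries for ALB, and within the DMSO pair the levels were close.

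The oncofetal genes, which are expressed in fetal liver and re-expressed in hepatocellular tumours, fell in 9 of 11 cases, with a median of -3.71. AFP, alpha-fetoprotein, was measured at 716 and 1017 CPM in the DMSO libraries, 26.4 and 103 CPM in the IR libraries and 5.27 and 3.73 CPM in the CR libraries. AFP changed by -5.65 ± 0.47 (SE, adjusted p = 2.91e-06). PEG10, an imprinted gene derived from a retrotransposon, was measured at 2017 and 1872 CPM in the DMSO libraries, 1.97 and 2.43 CPM in the IR libraries and 189 and 236 CPM in the CR libraries. PEG10 changed by -6.22 ± 0.30 (SE, adjusted p = 4.5e-08). SPINK1, a secreted trypsin inhibitor, went the other way, with 2.12 and 1.86 CPM with DMSO, 38.3 and 7.77 CPM in IR cells and 36.5 and 19.6 CPM in CR cells, a change of 2.93 ± 0.56 (SE, adjusted p = 0.00123). It was named after its values were seen, as the 1 member that rose, and against the parental libraries (14 and 4.56 CPM) the call ended (1.31, adjusted p = 0.0827).

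Lipoprotein assembly showed 12 of 17 genes lower and 1 higher, and coagulation and complement factors 17 of 21 lower and none higher, with medians of -1.43 and -1.70. Against the parental libraries these counts were 7 of 17 and 10 of 21 lower, with medians of -0.73 and -0.85. APOB, the structural protein of very low density lipoprotein, was measured at 6854 and 8293 CPM with DMSO, 401 and 1867 CPM in IR cells and 163 and 774 CPM in CR cells. APOB changed by -3.76 ± 0.76 (SE, adjusted p = 0.00167). Complement C3 was measured at 1418 and 2037 CPM with DMSO, 21.7 and 58.8 CPM in IR cells and 99.0 and 136 CPM in CR cells. C3 changed by -4.69 ± 0.52 (SE, adjusted p = 2.41e-05). The single higher lipoprotein gene, the cholesterol exporter ABCG1, was called at 1.18 ± 0.43 (SE, adjusted p = 0.042) and lost its call when any 1 of the 6 libraries was left out, with adjusted p = 0.0778 without IR replicate 2 and 0.165 without DMSO replicate 2.

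Among 20 hepatocyte transcription factors, 10 fell and 1 rose, against 8 and 3 with the parental libraries as the reference. CEBPA, a factor of the differentiated hepatocyte, was measured at 271 and 297 CPM with DMSO, 58.7 and 65.6 CPM in IR cells and 70.5 and 69.0 CPM in CR cells. CEBPA changed by -2.09 ± 0.27 (SE, adjusted p = 8.01e-05). The related stress-inducible factor CEBPB was the 1 that rose, with 7.86 and 8.28 CPM with DMSO, 28.0 and 19.9 CPM in IR cells and 36.5 and 36.0 CPM in CR cells and a change of 1.74 ± 0.21 (SE, adjusted p = 5.32e-05). HNF4A, the nuclear receptor that governs much of hepatocyte transcription, was measured at 207 and 218 CPM with DMSO, 219.8 and 154 CPM in IR cells and 119 and 115 CPM in CR cells, a change of -0.53 ± 0.29 (SE, adjusted p = 0.164) that was not called. The retinoid partner receptor RXRA fell by 1.84 ± 0.20 (SE, adjusted p = 1.82e-05) and the bile acid receptor NR1H4 fell by 1.56 ± 0.41 (SE, adjusted p = 0.00816).

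**Figure D2:**
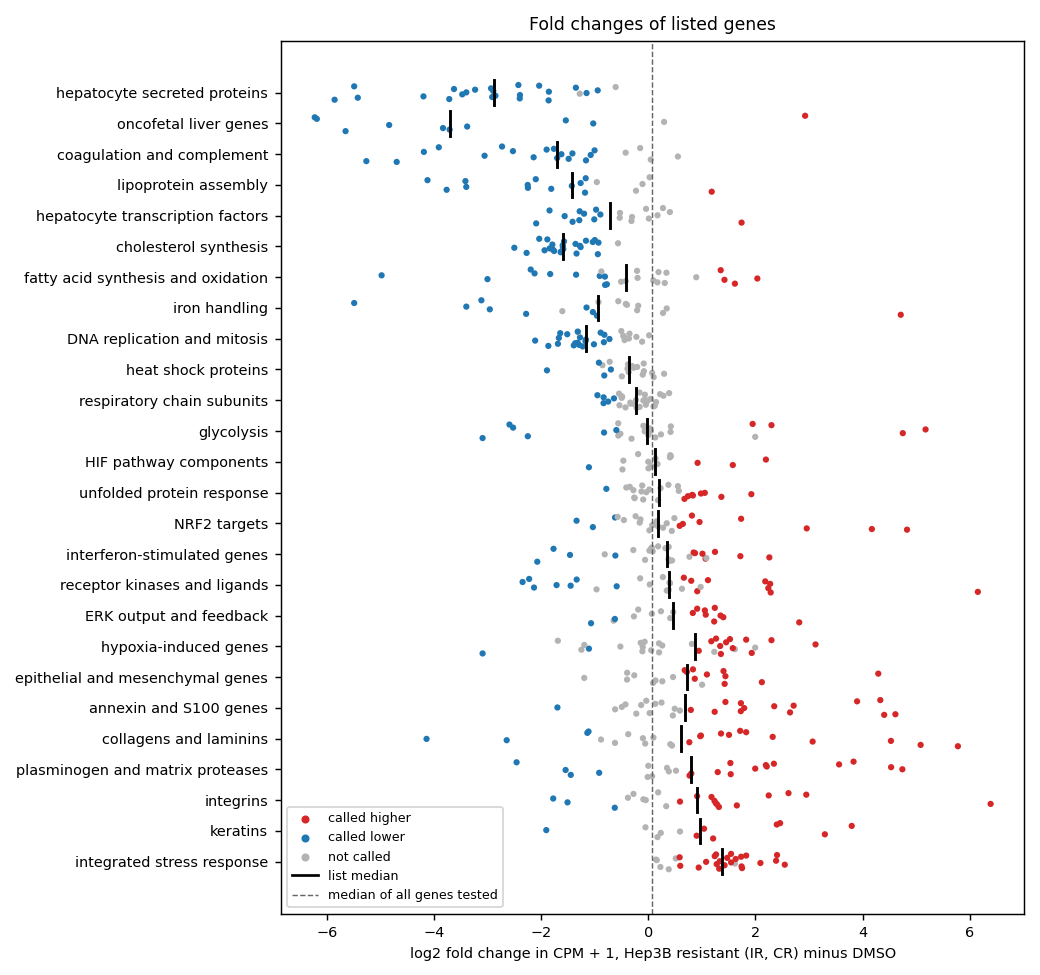
Log2 fold change in CPM + 1 between resistant and DMSO Hep3B cells for the genes of 26 lists, 1 point per gene, with the list median as a black bar and the median of all genes tested, 0.063, as a dashed line. Liver and cholesterol lists lie to the left, with a median of -1.59 for cholesterol synthesis, and the integrated stress response lies to the right with a median of 1.38.

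Cholesterol synthesis was the list that moved most evenly. All 25 genes tested separated downward without overlap, and 24 of them were called lower, the exception being the phosphomevalonate kinase gene PMVK (-0.56 ± 0.13 SE, adjusted p = 0.00319). Of all genes, 24.8% separated downward and 13.9% were called lower. Sterol-responsive promoters often hold a CCAAT box, the binding motif of the factor NF-Y that works with SREBP2. In the 250 bases before the annotated start, read on both strands, CCAAT was present in 15 of the 20 list genes that have a promoter in the RefSeq table. That is 75.0%, against 33.0% of all 27305 promoters. Since the list was written from general knowledge of this pathway, an excess of its motif is partly built in. The following stretches of the INSIG1 promoter (chr7:155297650-155297769, plus strand) and the DHCR7 promoter (chr11:71448394-71448513, minus strand), from the RefSeq GRCh38.p14 assembly and written 5′ to 3′ in the direction of the gene, show the CCAAT matches of the members with the widest fall in capitals, with ATTGG being the match on the opposite strand.
INSIG1: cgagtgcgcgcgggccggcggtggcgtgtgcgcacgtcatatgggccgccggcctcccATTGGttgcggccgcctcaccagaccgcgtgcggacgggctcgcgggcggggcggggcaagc
DHCR7: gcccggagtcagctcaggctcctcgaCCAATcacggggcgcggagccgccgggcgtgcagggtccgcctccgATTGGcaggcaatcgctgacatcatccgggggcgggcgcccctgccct
A match is a description of the letters and does not show binding.

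INSIG1, the sterol-regulated retention factor of SREBP2, was measured at 72.7 and 85.0 CPM in the DMSO libraries, 16.8 and 24.0 CPM in the IR libraries and 9.69 and 7.27 CPM in the CR libraries. DHCR7, the last enzyme of the pathway, was measured at 191 and 247 CPM in the DMSO libraries, 38.7 and 40.7 CPM in the IR libraries and 45.3 and 53.2 CPM in the CR libraries. INSIG1 changed by -2.50 ± 0.54 (SE, adjusted p = 0.00281) and DHCR7 by -2.27 ± 0.34 (SE, adjusted p = 0.000235), and the CR libraries lay below the IR libraries for INSIG1 and above them for DHCR7. SREBF2, the gene of SREBP2 itself, changed by -1.0 ± 0.23 (SE, adjusted p = 0.00363).

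The untreated parental cells were not at the level of the DMSO cells for this pathway. Relative to the DMSO mean, the list median was -1.38 and -0.80 in the parental libraries, -1.33 and -1.09 in the IR libraries and -1.81 and -1.93 in the CR libraries. With the parental libraries as the reference, 5 of the 25 genes were called lower and none higher, and the calls of INSIG1 (-0.29, adjusted p = 0.717), DHCR7 (-0.34, adjusted p = 0.464), MVK (-0.19, adjusted p = 0.622) and TM7SF2 (-0.70, adjusted p = 0.0856) ended. Whether vehicle, culture time or another difference between the DMSO and parental cells moved with these genes was not tested.

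**Figure D3:**
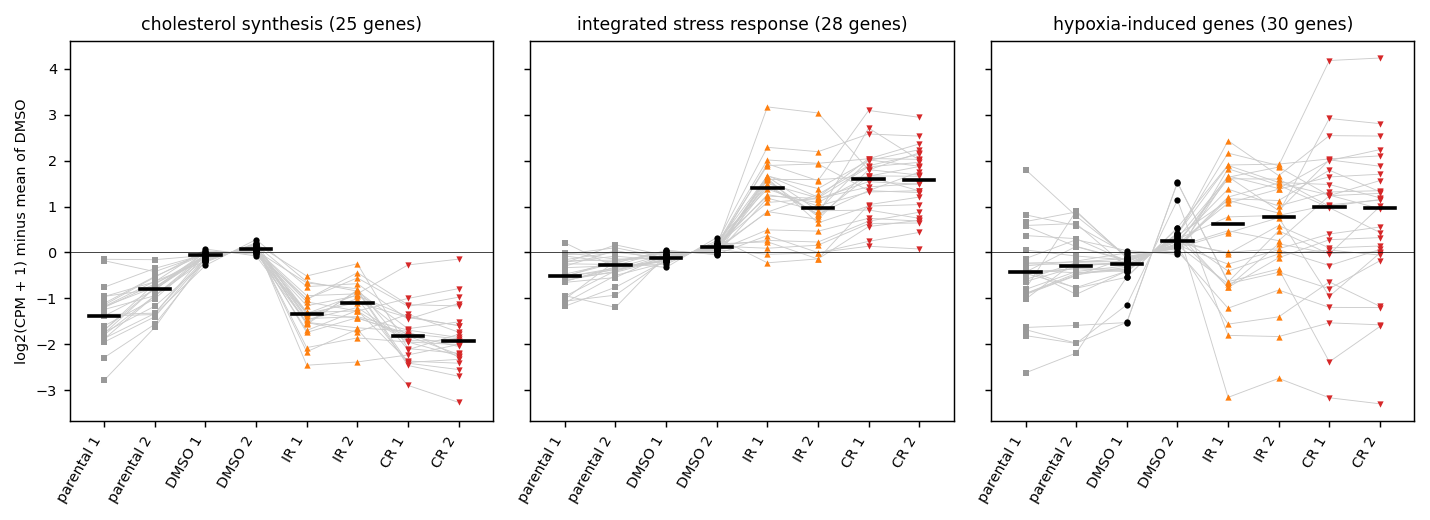
Log2(CPM + 1) of the genes of 3 lists in each Hep3B library minus the mean of the DMSO libraries, with grey lines joining a gene across libraries and black bars at the list median. The cholesterol median lies below 0 in parental and resistant libraries, the integrated stress response median lies between 0.96 and 1.6 in resistant and at -0.52 and -0.28 in parental libraries, and hypoxia-induced genes spread in both directions.

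Fatty acid genes moved less evenly, with 10 of 25 lower and 4 higher (ACSL1, ACSL5, ACADL and PPARGC1A). Against the parental libraries the balance was the opposite, with 2 lower and 5 higher and a median of -0.078. FASN, fatty acid synthase, was measured at 214 and 287 CPM with DMSO, 69.0 and 56.8 CPM in IR cells and 43.3 and 58.7 CPM in CR cells. FASN changed by -2.12 ± 0.40 (SE, adjusted p = 0.00108), a call that ended against the parental libraries (-0.96, adjusted p = 0.0746). FABP1, the fatty acid binding protein of hepatocytes, was measured at 63.7 and 148 CPM with DMSO, 1.51 and 19.5 CPM in IR cells and 0.159 and 0.590 CPM in CR cells. FABP1 changed by -4.98 ± 0.73 (SE, adjusted p = 0.000191). The acyl-CoA ligase gene ACSL5 rose, with 1.04 and 2.77 CPM with DMSO, 9.19 and 16.1 CPM in IR cells and 10.8 and 7.08 CPM in CR cells and a change of 2.03 ± 0.32 (SE, adjusted p = 0.000335), while its relative ACSL4 fell, with 1083 and 1043 CPM with DMSO, 138 and 231 CPM in IR cells and 97.0 and 98.2 CPM in CR cells and a change of -3.00 ± 0.26 (SE, adjusted p = 4.22e-06).

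The integrated stress response rose as a list. Of 28 genes tested, 22 rose and none fell, with a median of 1.38 against 0.063 for all genes. In IR cells 17 and in CR cells 23 of the 28 were called higher against DMSO. Against the parental libraries, 26 were called higher, and without DMSO replicate 2, 19. ATF4 recognises the CCAAT-enhancer binding protein and ATF response element, which was searched as TGATGNAA, N being any base. This motif stood in the 250 bases before the start of 5 of the 25 list genes with a promoter in the table (20.0%: AARS1, ASNS, ATF3, CHAC1 and FGF21), against 3.19% of all promoters. The list was written from general knowledge of this response, so that an excess of its motif is partly built in. Of these genes AARS1 was not called and FGF21 was not tested. For ATF3 (chr1:212565160-212565279, plus strand), CHAC1 (chr15:40953221-40953340, plus strand, match on the opposite strand) and ASNS (chr7:97872413-97872532, minus strand), the stretches that hold the match are given from RefSeq GRCh38.p14, with the match in capitals.
ATF3: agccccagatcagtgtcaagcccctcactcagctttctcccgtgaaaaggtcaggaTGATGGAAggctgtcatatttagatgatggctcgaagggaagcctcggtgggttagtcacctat
CHAC1: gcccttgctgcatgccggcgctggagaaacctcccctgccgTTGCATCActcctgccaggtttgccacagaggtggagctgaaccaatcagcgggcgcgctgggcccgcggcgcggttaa
ASNS: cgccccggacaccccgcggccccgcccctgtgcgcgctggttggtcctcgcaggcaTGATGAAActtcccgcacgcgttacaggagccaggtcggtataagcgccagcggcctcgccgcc
No match says only that these letters are missing from the window searched.

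ASNS, asparagine synthetase, was measured at 202 and 250.2 CPM in the DMSO libraries, 480.3 and 508 CPM in the IR libraries and 657 and 632 CPM in the CR libraries. ASNS rose by 1.32 ± 0.23 (SE, adjusted p = 0.000634). CHAC1, which degrades glutathione, was measured at 19 and 17.8 CPM in the DMSO libraries, 56.8 and 32.4 CPM in the IR libraries and 60.6 and 60.3 CPM in the CR libraries. CHAC1 rose by 1.42 ± 0.31 (SE, adjusted p = 0.00277). ATF3, a stress-induced transcription factor, was measured at 20.7 and 22.2 CPM in the DMSO libraries, 59.8 and 38.8 CPM in the IR libraries and 146 and 89.8 CPM in the CR libraries, a change of 1.75 ± 0.47 (SE, adjusted p = 0.00979). Its call ended without DMSO replicate 1 (1.70, adjusted p = 0.068) and without DMSO replicate 2 (1.80, adjusted p = 0.0554). These 3 genes were named for their sequences. ATF4 itself was measured at 395 and 383 CPM with DMSO, 885 and 731 CPM in IR cells and 739.8 and 652 CPM in CR cells. ATF4 rose by 0.94 ± 0.19 (SE, adjusted p = 0.00176).

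Enzymes and regulators of the same list were also called higher. CTH, the enzyme that makes cysteine from cystathionine, was measured at 5.44 and 6.61 CPM with DMSO, 62.1 and 56.6 CPM in IR cells and 23.4 and 30.5 CPM in CR cells. CTH rose by 2.55 ± 0.32 (SE, adjusted p = 6.71e-05). TRIB3, a pseudokinase induced by ATF4, was measured at 95.4 and 129 CPM with DMSO, 548 and 513 CPM in IR cells and 670.5 and 649 CPM in CR cells. TRIB3 rose by 2.40 ± 0.38 (SE, adjusted p = 0.000344). PPP1R15A, the regulatory subunit that restores translation by dephosphorylating eIF2, was measured at 39.1 and 46.7 CPM with DMSO, 166 and 129 CPM in IR cells and 373 and 336 CPM in CR cells. PPP1R15A rose by 2.38 ± 0.27 (SE, adjusted p = 2.79e-05). These 3 genes were picked from the list for being called and free of overlap with DMSO. DDIT3, the transcription factor CHOP, was called at 1.28 ± 0.35 (SE, adjusted p = 0.0104), but not without DMSO replicate 1 (1.22, adjusted p = 0.0756) or DMSO replicate 2 (1.33, adjusted p = 0.0547).

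The unfolded protein response, a neighbouring pathway of the endoplasmic reticulum, was split. Of 24 genes 8 rose and 1 fell, with a median of 0.20, and 4 rose and 1 fell against the parental libraries. HSPA5, the chaperone BiP that is the usual readout of the response, was measured at 667 and 689 CPM with DMSO, 386 and 519 CPM in IR cells and 742 and 997 CPM in CR cells, a change of -0.13 ± 0.22 (SE, adjusted p = 0.686). The IR libraries lay below and the CR libraries above both DMSO libraries. The sensor kinase gene ERN1 rose, with 11.2 and 12.9 CPM with DMSO, 29.5 and 29.3 CPM in IR cells and 60.9 and 103 CPM in CR cells and a change of 1.92 ± 0.20 (SE, adjusted p = 1.37e-05), and so did EIF2AK3, the sensor kinase PERK (0.82 ± 0.15 SE, adjusted p = 0.000713), whose call ended against the parental libraries (0.35, adjusted p = 0.0773). The disulfide isomerase gene PDIA4 was the 1 that fell (-0.78 ± 0.13 SE, adjusted p = 0.000399), and its call also ended against parental cells (-0.50, adjusted p = 0.00779). Among heat shock proteins, 4 of 19 fell and none rose, and 8 fell against the parental libraries. Of these, HSPE1, the mitochondrial co-chaperonin, fell by 0.92 ± 0.17 (SE, adjusted p = 0.000792). HSPA1A fell by 1.89 ± 0.19 (SE, adjusted p = 1.37e-05), and its near-identical copy HSPA1B was called at -0.70 ± 0.20 (SE, adjusted p = 0.0123) but lost the call without DMSO replicate 1 or 2 or CR replicate 1 and against parental cells, while DNAJA1 lost its call (-0.82 ± 0.25 SE, adjusted p = 0.0195) without DMSO replicate 1, IR replicate 1 or CR replicate 1. Reads of HSPA1A and HSPA1B may have been split between the copies.

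The study was concerned with HIF1A and glycolysis, and the RNA of these genes is given here. HIF1A was measured at 287 and 261 CPM in the DMSO libraries, 650.4 and 538 CPM in the IR libraries and 506 and 407 CPM in the CR libraries, with 308 and 339 CPM in the parental cells. All 4 resistant libraries lay above both DMSO libraries, and HIF1A RNA rose by 0.92 ± 0.19 (SE, adjusted p = 0.00202), or 1.92-fold in mean CPM. EPAS1, which encodes the related subunit HIF2A, was measured at 192 and 213 CPM in the DMSO libraries, 208 and 202 CPM in the IR libraries and 278 and 231 CPM in the CR libraries, a change of 0.17 ± 0.19 (SE, adjusted p = 0.506) that was not called. EGLN1, the main prolyl hydroxylase that marks HIF1A for degradation, fell from 179.5 and 188 CPM with DMSO to 78.6 and 104 CPM in IR and 79.6 and 79.4 CPM in CR cells, a change of -1.11 ± 0.15 (SE, adjusted p = 0.000108). Of 15 components and deubiquitylases examined, 3 rose (HIF1A, EGLN3 and UCHL1) and 1 fell (EGLN1), shares close to the 18.6% and below the 13.9% of all genes. UCHL1, a deubiquitylase, was measured at 119 and 131 CPM with DMSO, 455 and 466 CPM in IR cells and 753 and 686 CPM in CR cells. UCHL1 rose by 2.19 ± 0.11 (SE, adjusted p = 7.68e-08). EGLN3, a hydroxylase that is itself induced by hypoxia, was called at 1.58 ± 0.42 (SE, adjusted p = 0.00918), and the call ended without DMSO replicate 1 (1.26, adjusted p = 0.11) and against parental cells (0.97, adjusted p = 0.0863). USP29, a deubiquitylase that the study examined, was at no more than 0.0268 CPM in the 6 libraries and was not tested.

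Of 30 hypoxia-induced genes, 12 rose and 2 fell, with a median of 0.88, beside 18.6% higher and 13.9% lower of all genes. Some members, STC2 among them, are also counted in the integrated stress response list, so that these lists are not separate observations. LOXL2, a lysyl oxidase that crosslinks collagen, was measured at 2.25 and 4.67 CPM with DMSO, 18.3 and 15 CPM in IR cells and 77.0 and 80 CPM in CR cells. LOXL2 rose by 3.12 ± 0.50 (SE, adjusted p = 0.00035). VEGFA, the angiogenic growth factor, was measured at 73.8 and 130.5 CPM with DMSO, 368 and 284 CPM in IR cells and 276 and 225 CPM in CR cells. VEGFA rose by 1.52 ± 0.29 (SE, adjusted p = 0.0011). STC2, a secreted glycoprotein, was measured at 42.1 and 55.0 CPM with DMSO, 155 and 128 CPM in IR cells and 196 and 231 CPM in CR cells and was called at 1.83 ± 0.48 (SE, adjusted p = 0.00884), but not without DMSO replicate 1 (1.64, adjusted p = 0.0818). The DMSO libraries stood apart for this list, its median lying at -0.25 in replicate 1 and 0.25 in replicate 2 relative to their mean. The gap was widest in CA9, the carbonic anhydrase that is a common hypoxia marker, with 3.88 and 39.5 CPM with DMSO, 8.04 and 9.95 CPM in IR cells and 1.69 and 3.60 CPM in CR cells. CA9 was not called (-1.25 ± 0.79 SE, adjusted p = 0.227). Without DMSO replicate 1 it was called lower (-2.77, adjusted p = 0.0235), and without DMSO replicate 2 the sign turned (0.28, adjusted p = 0.843). Leaving out DMSO replicate 2 left 9 of the 30 genes higher and 2 lower. ALDOC, an aldolase isoform, fell by 3.09 ± 0.53 (SE, adjusted p = 0.000572), and its call ended against parental cells (-0.68, adjusted p = 0.335).

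Glycolysis did not move in a single direction, 4 of 26 genes being higher (SLC2A1, SLC2A3, HKDC1 and PFKP) and 6 lower (3 against the parental libraries), with a median of -0.031. Of all genes, 18.6% were higher and 13.9% lower, and 11.7% were lower against the parental libraries. The share of higher glycolysis genes, and that of lower ones against parental cells, were near these shares. SLC2A1, the glucose transporter GLUT1, was measured at 20.3 and 35.6 CPM in the DMSO libraries, 150.0 and 88.1 CPM in the IR libraries and 162 and 161 CPM in the CR libraries. SLC2A1 rose by 2.30 ± 0.27 (SE, adjusted p = 3.7e-05). HK2, the hexokinase isoform of many tumours, was measured at 261 and 327 CPM in the DMSO libraries, 182 and 216 CPM in the IR libraries and 168 and 258 CPM in the CR libraries, with 217 and 321 CPM in parental cells. All 4 resistant libraries lay below both DMSO libraries, CR replicate 2 narrowly. The change of -0.52 ± 0.19 (SE, adjusted p = 0.0405) passed the test but not the fold limit, so that the call hung on the setting. HK2 was called lower with TMM scaling (-0.60), edgeR (-0.59), DESeq2 (-0.59) and the GC adjustment (-0.59), and without IR replicate 2 (-0.58, adjusted p = 0.044) or CR replicate 2 (-0.67, adjusted p = 0.011). HKDC1, a hexokinase relative, was measured at 13.8 and 24.6 CPM with DMSO, 411 and 389.8 CPM in IR cells and 688 and 673 CPM in CR cells. HKDC1 rose by 4.75 ± 0.33 (SE, adjusted p = 7.43e-07). The isoforms found in differentiated liver went down. SLC2A2, the hepatocyte glucose transporter GLUT2, fell by 2.59 ± 0.18 (SE, adjusted p = 5.79e-07). PKLR, the liver pyruvate kinase, fell by 2.52 ± 0.37 (SE, adjusted p = 0.000203), and was not called against parental cells (-0.26, adjusted p = 0.63). ENO3, an enolase isoform, fell by 2.25 ± 0.38 (SE, adjusted p = 0.000485). SLC2A3, the transporter GLUT3, was the remaining higher gene (1.95 ± 0.70 SE, adjusted p = 0.0386), and it lost its call without any 1 of DMSO replicate 1 or 2, IR replicate 1 or 2 or CR replicate 1, with adjusted p = 0.215 without DMSO replicate 2, and against parental cells (1.52, adjusted p = 0.102).

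**Figure D4:**
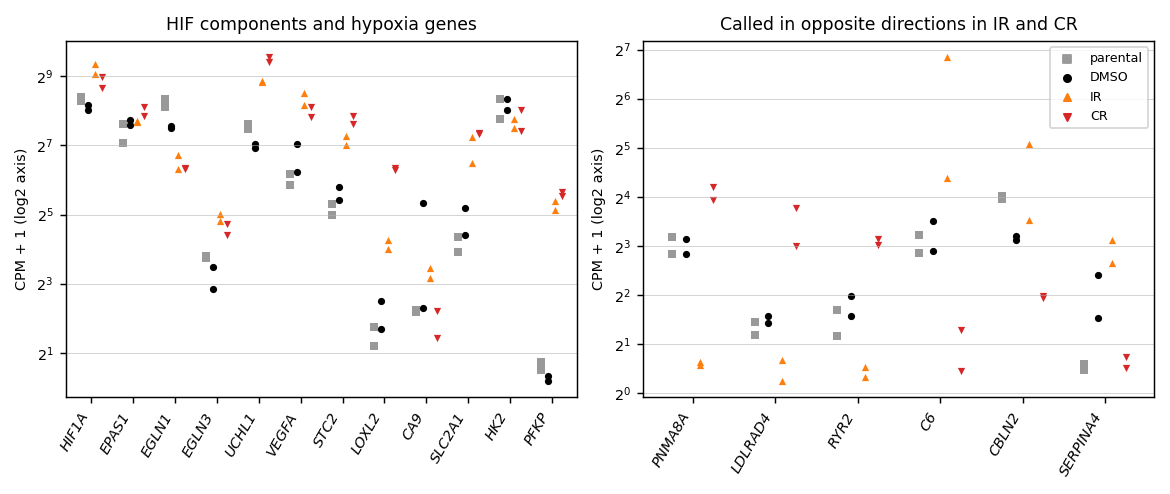
Level of HIF pathway, hypoxia and glycolysis genes (left) and of 6 genes called in opposite directions in IR and CR cells (right), as CPM + 1 on a log2 axis, 1 point per Hep3B library. HIF1A lies at 650.4, 538, 506 and 407 CPM in resistant against 287 and 261 CPM in DMSO libraries, while the highest resistant library for HK2, 258 CPM, lies next to the lower DMSO library, 261 CPM, and the DMSO libraries for CA9 lie far apart.

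Cell cycle genes were lower. Of 30 genes of DNA replication and mitosis, 20 fell and none rose, with a median of -1.17, and in Huh7 the median was -1.14. CDC25A, the phosphatase that activates cyclin-dependent kinases, was measured at 54.8 and 46.4 CPM with DMSO, 9.69 and 11.7 CPM in IR cells and 11.5 and 10.9 CPM in CR cells. CDC25A fell by 2.11 ± 0.26 (SE, adjusted p = 5.69e-05). AURKB, the kinase of the chromosomal passenger complex, was measured at 87.5 and 77.7 CPM with DMSO, 35.7 and 22.1 CPM in IR cells and 19 and 15.3 CPM in CR cells. AURKB fell by 1.86 ± 0.27 (SE, adjusted p = 0.000179). Both genes were picked for being called and free of overlap with DMSO. FOXM1, a transcription factor of mitotic genes, fell by 1.67 ± 0.25 (SE, adjusted p = 0.000228). The proliferation marker MKI67 was measured at 335 and 345 CPM with DMSO, 191 and 145 CPM in IR cells and 70.3 and 101 CPM in CR cells and was called at -1.51 ± 0.38 (SE, adjusted p = 0.00682), but not without DMSO replicate 2 (-1.49, adjusted p = 0.0509).

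Of 19 cyclin-dependent kinase inhibitor and DNA damage response genes, 4 rose and 3 fell, shares near those of all genes (18.6% and 13.9%), and against the parental libraries 5 rose and 1 fell. Beside CDKN1A, the inhibitor CDKN2B was measured at 26.0 and 27.5 CPM with DMSO, 176 and 131 CPM in IR cells and 279 and 245 CPM in CR cells. CDKN2B rose by 2.85 ± 0.23 (SE, adjusted p = 2.5e-06). GADD45A, a DNA damage-inducible gene, was measured at 8.50 and 11.3 CPM with DMSO, 45.7 and 39.6 CPM in IR cells and 79.9 and 70.4 CPM in CR cells. GADD45A rose by 2.41 ± 0.30 (SE, adjusted p = 5.93e-05). The oxidoreductase gene TP53I3 was called at 0.96 ± 0.25 (SE, adjusted p = 0.00719), but not without DMSO replicate 1 (0.97, adjusted p = 0.0504) or 2 (0.95, adjusted p = 0.0534) or against parental cells (0.49, adjusted p = 0.131). The lower genes were the antiproliferative gene BTG2 (-2.29 ± 0.26 SE, adjusted p = 3.34e-05), the inhibitor CDKN2C (-1.46 ± 0.28 SE, adjusted p = 0.00136), which was not called against parental cells (-0.51, adjusted p = 0.18), and SESN1 (-0.72 ± 0.23 SE, adjusted p = 0.0239), which lost its call without DMSO replicate 1, IR replicate 1 or CR replicate 1 and against parental cells.

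Receptor kinases and their ligands were divided. Of 26 receptors and ligands, 9 rose and 7 fell. Beside AXL, its relative MERTK was measured at 6.10 and 7.84 CPM with DMSO, 33.1 and 26.3 CPM in IR cells and 37.9 and 45.1 CPM in CR cells. MERTK rose by 2.18 ± 0.30 (SE, adjusted p = 0.000117). EGFR, the epidermal growth factor receptor, was measured at 121 and 144 CPM with DMSO, 204 and 179 CPM in IR cells and 326 and 322 CPM in CR cells. EGFR rose by 0.91 ± 0.17 (SE, adjusted p = 0.000987). The EGFR ligand HBEGF was measured at 4.25 and 3.45 CPM with DMSO, 14.8 and 17.7 CPM in IR cells and 34.1 and 27.8 CPM in CR cells. HBEGF rose by 2.27 ± 0.16 (SE, adjusted p = 6.6e-07). EGFR and HBEGF, like MERTK, which was picked for it, lay above DMSO in each resistant library. EGFR and HBEGF were higher in both CR than in both IR libraries. Further ligands of this receptor rose as well, EREG by 2.24 ± 0.37 (SE, adjusted p = 0.000471) and AREG by 2.28 ± 0.50 (SE, adjusted p = 0.00284), though AREG was not called against parental cells (1.08, adjusted p = 0.104). The axis in which FGF19 signals through the receptor FGFR4 and its co-receptor KLB in hepatocytes, went down in all 3 parts. FGF19 was measured at 9.84 and 12.9 CPM with DMSO, 2.66 and 1.76 CPM in IR cells and 1.66 and 1.28 CPM in CR cells. FGF19 fell by 2.13 ± 0.21 (SE, adjusted p = 1.04e-05). KLB was measured at 127 and 125 CPM with DMSO, 44.4 and 65.2 CPM in IR cells and 9.81 and 11 CPM in CR cells. KLB fell by 2.35 ± 0.33 (SE, adjusted p = 0.000124). FGFR4 was measured at 165 and 198 CPM with DMSO, 62.6 and 60.4 CPM in IR cells and 47.6 and 49.0 CPM in CR cells. FGFR4 fell by 1.71 ± 0.39 (SE, adjusted p = 0.00394), a call that ended against parental cells (-0.97, adjusted p = 0.0691). HBEGF, FGF19, KLB and FGFR4 were named after their values were seen. PDGFRB, a receptor that Sorafenib inhibits, was measured at 14 and 11.8 CPM with DMSO, 1.36 and 1.12 CPM in IR cells and 3.95 and 2.13 CPM in CR cells. PDGFRB fell by 2.22 ± 0.21 (SE, adjusted p = 8.76e-06).

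Among 19 genes of ERK output and feedback, 9 rose and 2 fell, with a median of 0.47, beside 18.6% higher and 13.9% lower of all genes. The regimens differed, since 8 were called higher and 1 lower in IR cells, but 8 higher and 6 lower in CR cells. The ERK phosphatase gene DUSP4 was measured at 5.20 and 4.76 CPM with DMSO, 67.0 and 68.9 CPM in IR cells and 19.9 and 30.6 CPM in CR cells. DUSP4 rose by 2.82 ± 0.17 (SE, adjusted p = 2e-07). SPRY4, an inhibitor of receptor signalling that is induced by ERK, was measured at 18.7 and 20.7 CPM with DMSO, 51.2 and 55.7 CPM in IR cells and 39.3 and 47.0 CPM in CR cells. SPRY4 rose by 1.24 ± 0.19 (SE, adjusted p = 0.000305). The transcription factor genes FOSL1 and ETV5 rose by 1.35 ± 0.27 (SE, adjusted p = 0.00158) and 1.40 ± 0.22 (SE, adjusted p = 0.000357). CCND1, which encodes cyclin D1, fell by 1.07 ± 0.15 (SE, adjusted p = 0.000119), and ETV1 was called at -0.62 ± 0.16 (SE, adjusted p = 0.00676) but not without DMSO replicate 2 (-0.55, adjusted p = 0.0759) or CR replicate 1 (-0.55, adjusted p = 0.0244).

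Cell adhesion and matrix genes moved upward in most lists. Of 21 integrin genes, 12 rose and 3 fell (ITGAL, ITGA5 and ITGA1), with a median of 0.91. ITGB4, the beta subunit of hemidesmosomes, was measured at 9.33 and 14.2 CPM with DMSO, 119 and 63.6 CPM in IR cells and 109 and 101 CPM in CR cells. ITGB4 rose by 2.95 ± 0.34 (SE, adjusted p = 3.19e-05). ITGB6, the partner of the alpha v subunit that activates TGF-beta, was measured at 1.85 and 2.43 CPM with DMSO, 24.5 and 11.8 CPM in IR cells and 26.2 and 14.1 CPM in CR cells. ITGB6 rose by 2.62 ± 0.40 (SE, adjusted p = 0.000232). The IR and CR libraries overlapped in both genes. ITGA5, a fibronectin receptor subunit, fell by 1.51 ± 0.34 (SE, adjusted p = 0.00373). ITGA1 was called at -0.63 ± 0.18 (SE, adjusted p = 0.0135), and the call ended without DMSO replicate 1 (-0.54, adjusted p = 0.117) or CR replicate 1 (-0.57, adjusted p = 0.0426).

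Of 24 collagens and laminins, 12 rose and 4 fell. COL1A1, a chain of fibrillar collagen I, was measured at 0.182 and 0.192 CPM with DMSO, 62.9 and 11.5 CPM in IR cells and 66.2 and 47.3 CPM in CR cells. COL1A1 rose by 5.08 ± 0.48 (SE, adjusted p = 7.09e-06). COL4A4, a basement membrane collagen, was measured at 0.221 and 0.151 CPM with DMSO, 39.1 and 20.4 CPM in IR cells and 29.8 and 20.1 CPM in CR cells. COL4A4 rose by 4.53 ± 0.29 (SE, adjusted p = 3.94e-07). COL1A1 is also 1 of the 7 fibroblast markers, of which COL3A1, DCN and THY1 were under 1 CPM, and is counted in their summed level. It held 0.182 of 27.5 and 0.192 of 23.4 CPM with DMSO. In IR cells it held 62.9 of 86.8 and 11.5 of 33.2 CPM, and in CR cells 66.2 of 87.1 and 47.3 of 68.6 CPM. The part of the other markers in the result was not tested. LAMB3, a chain of laminin-332, rose by 1.83 ± 0.37 (SE, adjusted p = 0.00161). COL5A2, a fibrillar collagen, was measured at 405 and 287 CPM with DMSO, 12 and 8.70 CPM in IR cells and 33.9 and 31.2 CPM in CR cells. COL5A2 fell by 4.14 ± 0.22 (SE, adjusted p = 9.08e-08). Its IR libraries were the lowest, while COL4A5 was low in CR cells and overlapped with DMSO in IR cells. COL4A5 was measured at 35 and 48.5 CPM with DMSO, 21.0 and 62.8 CPM in IR cells and 0.159 and 0.286 CPM in CR cells with 1.84 and 2.55 CPM in parental cells, so that its change of -2.64 ± 0.39 (SE, adjusted p = 0.000197) turned against the parental libraries (1.09, adjusted p = 0.0419). The laminin genes LAMB2 and LAMC1 changed by -1.14 ± 0.27 (SE, adjusted p = 0.00488) and -1.12 ± 0.15 (SE, adjusted p = 0.000123), and LAMB2 was not called against parental cells (-0.62, adjusted p = 0.0881).

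Of 23 plasminogen system and matrix protease genes, 13 rose and 4 fell (TIMP3, MMP19, MMP11 and ADAM19, of which MMP11 lost its call when any 1 of the 6 libraries was left out and against parental cells). PLAU, the urokinase that activates plasminogen, was measured at 0.520 and 1.26 CPM with DMSO, 28.6 and 37.7 CPM in IR cells and 42.8 and 66.2 CPM in CR cells. PLAU rose by 4.53 ± 0.32 (SE, adjusted p = 8.42e-07). SERPINE2, an inhibitor of PLAU and thrombin, was measured at 8.30 and 7.55 CPM with DMSO, 83.2 and 100.1 CPM in IR cells and 169 and 83.7 CPM in CR cells. SERPINE2 rose by 3.56 ± 0.29 (SE, adjusted p = 2.62e-06). Both were picked from the list for being called and free of overlap with DMSO. MMP24, a membrane-anchored metalloproteinase, was measured at 1.21 and 0.973 CPM with DMSO, 94.8 and 58.6 CPM in IR cells and 35.4 and 45.7 CPM in CR cells. MMP24 rose by 4.74 ± 0.34 (SE, adjusted p = 8.58e-07). TIMP4 rose by 3.83 ± 0.29 (SE, adjusted p = 1.37e-06), while TIMP3, another inhibitor of metalloproteinases, fell by 2.46 ± 0.22 (SE, adjusted p = 4.12e-06), a call that ended against parental cells (-0.56, adjusted p = 0.0541).

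Of 26 annexin and S100 genes, which encode calcium-binding proteins of membranes and the cortex, 13 rose and 1 fell (ANXA9). ANXA1 was measured at 2.75 and 1.81 CPM with DMSO, 60.1 and 59.2 CPM in IR cells and 112 and 94.1 CPM in CR cells. ANXA1 rose by 4.61 ± 0.19 (SE, adjusted p = 1.53e-08). AHNAK2, a giant scaffold protein, was measured at 0.494 and 0.781 CPM with DMSO, 28.6 and 6.42 CPM in IR cells and 101 and 62.0 CPM in CR cells. AHNAK2 rose by 4.40 ± 0.43 (SE, adjusted p = 9.2e-06). S100A6 was measured at 10.0 and 9.57 CPM with DMSO, 193 and 112 CPM in IR cells and 236 and 127 CPM in CR cells. S100A6 rose by 3.90 ± 0.30 (SE, adjusted p = 1.38e-06). S100P rose by 4.33 ± 0.43 (SE, adjusted p = 1.03e-05). The 4 genes were picked for being called and free of overlap with DMSO.

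Of 12 keratins, 7 rose and 1 fell (KRT23). KRT80 was measured at 20.7 and 32.5 CPM with DMSO, 418 and 250.3 CPM in IR cells and 533 and 349 CPM in CR cells. KRT80 rose by 3.8 ± 0.44 (SE, adjusted p = 3.44e-05), and KRT17, a keratin of stratified and injured epithelia, was measured at 4.14 and 4.74 CPM with DMSO, 55.6 and 13.2 CPM in IR cells and 125 and 78.9 CPM in CR cells. KRT17 rose by 3.29 ± 0.75 (SE, adjusted p = 0.00378). In both genes the lowest value of the resistant libraries was that of IR replicate 2. Keratins 7 and 19 belong to a list of 7 biliary and progenitor markers, whose summed level was 1223 and 1156 CPM with DMSO and between 1593 and 3262 CPM in resistant libraries, and its part in the result was not tested. KRT7 and PROM1 were the only members of that list called higher, and KRT7 was not called with edgeR (1.18, adjusted p = 0.0802). The hair keratin genes KRT81 and KRT86 are close copies whose reads may have been shared. KRT8 and KRT18, the keratins of hepatocytes, were not called (-0.053 ± 0.31 SE, adjusted p = 0.923 and 0.23 ± 0.26 SE, adjusted p = 0.501).

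Of 19 epithelial and mesenchymal genes, 10 rose and none fell. VIM, the mesenchymal intermediate filament vimentin, was measured at 528 and 499 CPM with DMSO, 1333 and 1039 CPM in IR cells and 2063 and 1193 CPM in CR cells. VIM rose by 1.40 ± 0.21 (SE, adjusted p = 0.000243). SPARC, a matrix glycoprotein, was measured at 0.247 and 0.219 CPM with DMSO, 18.5 and 10.1 CPM in IR cells and 38.1 and 39.3 CPM in CR cells. SPARC rose by 4.29 ± 0.26 (SE, adjusted p = 2.18e-07). CDH2, N-cadherin, rose by 1.42 ± 0.23 (SE, adjusted p = 0.000419). Of epithelial junction genes, the claudin gene CLDN2 was called at 2.12 ± 0.76 (SE, adjusted p = 0.039), but lost its call when any 1 of the 6 libraries was left out (adjusted p between 0.0522 and 0.154), and TJP1, the scaffold ZO-1, was called at 0.72 ± 0.12 (SE, adjusted p = 0.000494) but fell short of the fold limit against parental cells (0.52, adjusted p = 0.00495). TJP1 was named after its values were seen. CDH1, E-cadherin, was measured at 119.5 and 169 CPM with DMSO, 311 and 327 CPM in IR cells and 226 and 291 CPM in CR cells, with 84.1 and 80.2 CPM in parental cells, and was not called against DMSO (1.00 ± 0.43 SE, adjusted p = 0.0743) but was called higher against the parental libraries (1.79, adjusted p = 0.00543). Against DMSO it was also called in fits on the Hep3B libraries alone (adjusted p = 0.00204) or the 6 libraries alone (adjusted p = 0.00521) and with the replicate block (adjusted p = 0.0337).

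Of 25 targets and components of NRF2, the regulator of antioxidant genes, 8 rose and 3 fell (NQO1, FTL and TALDO1), of which FTL was not called with quantile scaling and TALDO1 not against parental cells (-0.28, adjusted p = 0.0698). The share that fell was near the 13.9% of all genes. The aldo-keto reductase genes AKR1C1, AKR1C2 and AKR1C3, which are near copies of one another and may have shared reads, rose by 4.83 ± 0.41 (SE, adjusted p = 3.39e-06), 4.17 ± 0.44 (SE, adjusted p = 1.81e-05) and 2.96 ± 0.41 (SE, adjusted p = 0.000129). NQO1, the quinone reductase often used as a readout of NRF2, was measured at 31.2 and 43.1 CPM with DMSO, 15.7 and 21.3 CPM in IR cells and 9.20 and 11.9 CPM in CR cells, a change of -1.34 ± 0.31 (SE, adjusted p = 0.00406) that was not called without DMSO replicate 2 (-1.11, adjusted p = 0.061). HMOX1, heme oxygenase, was measured at 18.7 and 18.4 CPM with DMSO, 26.5 and 24.8 CPM in IR cells and 22.6 and 21.7 CPM in CR cells and was not called (0.34 ± 0.20 SE, adjusted p = 0.194), although it was against the parental libraries (0.89, adjusted p = 0.00419). The metallothionein MT2A was called at 1.44 ± 0.47 (SE, adjusted p = 0.0255), but not without DMSO replicate 1 or 2, IR replicate 1 or CR replicate 1, the adjusted p being 0.0578 to 0.177, and its resistant and DMSO libraries overlapped.

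Of 26 interferon-stimulated genes 7 rose and 4 fell (CXCL10, IFITM2, OAS3 and IFITM1), the share that fell being near the 13.9% of all genes. The balance differed by regimen, with 3 higher and 6 lower in IR cells and 9 higher and 2 lower in CR cells. OAS3 lost its call without DMSO replicate 1 (-1.30, adjusted p = 0.054) and against parental cells (-0.18, adjusted p = 0.753), and so did IFITM1 (-0.53, adjusted p = 0.124 and -0.33, adjusted p = 0.164). Against the parental libraries 11 interferon-stimulated genes rose and 2 fell. Of 25 chemokine and cytokine genes 5 rose (IL11, LIF, IL18, CSF1 and OSMR) and 6 fell, the share that rose being near the 18.6% of all genes. Of 15 antigen presentation and checkpoint genes 3 rose (TAP1, CD274 and VTCN1) and 2 fell (CD47 and CD276), and CD276 lost its call without DMSO replicate 1 (-0.66, adjusted p = 0.0585). Both shares of the last list were near those of all genes (18.6% higher and 13.9% lower), and it held 8 higher and 2 lower genes against the parental libraries. In IR cells the same list held 2 higher and 1 lower genes, and in CR cells 6 higher and 2 lower. CXCL10, an interferon-induced chemokine, fell by 2.07 ± 0.31 (SE, adjusted p = 0.000231), while IFIT2 rose by 2.26 ± 0.29 (SE, adjusted p = 7.94e-05). IL18, a cytokine of the interleukin 1 family, was measured at 2.80 and 3.17 CPM with DMSO, 136 and 95.5 CPM in IR cells and 102 and 52.3 CPM in CR cells. IL18 rose by 4.54 ± 0.25 (SE, adjusted p = 1.27e-07). CD274, the checkpoint ligand PD-L1, was measured at 0.351 and 0.151 CPM with DMSO, 3.47 and 3.40 CPM in IR cells and 4.42 and 5.92 CPM in CR cells. CD274 rose by 2.06 ± 0.23 (SE, adjusted p = 2.82e-05). CD47, the signal that restrains phagocytes, fell by 1.29 ± 0.17 (SE, adjusted p = 7.35e-05).

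The regimens were next set side by side. Against the same DMSO libraries, 2599 genes were higher (17.3%) and 2220 lower (14.8%) in IR cells, and 2925 higher (19.5%) and 2017 lower (13.4%) in CR cells. Both comparisons use the same control libraries. The direct comparison of IR with CR called 801 genes higher in IR (5.33%) and 963 lower (6.41%). In opposite directions against DMSO, 25 genes were called, 6 higher in IR and lower in CR (0.0399%) and 19 the reverse (0.127%). Opposite calls fix a difference between the regimens, so that the differences of these genes are given as a description, with no test.

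C6, a terminal complement component, was measured at 6.44 and 10.3 CPM with DMSO, 19.9 and 114 CPM in IR cells and 0.371 and 1.45 CPM in CR cells. Its difference between IR and CR was 4.74 ± 0.71 (SE). CBLN2, a secreted synaptic organiser, was measured at 8.27 and 7.73 CPM with DMSO, 10.5 and 32.5 CPM in IR cells and 2.82 and 2.97 CPM in CR cells and differed by 2.34 ± 0.35 (SE), and SERPINA4, the kallikrein inhibitor kallistatin, was measured at 1.91 and 4.28 CPM with DMSO, 7.65 and 5.26 CPM in IR cells and 0.424 and 0.666 CPM in CR cells and differed by 2.26 ± 0.28 (SE). These 3 genes stood above DMSO in IR and below it in CR cells. The reverse was seen for PNMA8A, a paraneoplastic antigen family gene at 6.17 and 7.88 CPM with DMSO, 0.495 and 0.554 CPM in IR cells and 17.3 and 14.4 CPM in CR cells with a difference of -3.46 ± 0.17 (SE), for LDLRAD4, a negative regulator of TGF-beta signalling at 1.99 and 1.69 CPM with DMSO, 0.589 and 0.185 CPM in IR cells and 12.7 and 7.03 CPM in CR cells with a difference of -2.93 ± 0.36 (SE), and for RYR2, a calcium release channel at 1.99 and 2.93 CPM with DMSO, 0.442 and 0.256 CPM in IR cells and 7.07 and 7.77 CPM in CR cells with a difference of -2.64 ± 0.19 (SE).

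Several of the changes against DMSO lost their call when 1 library was left out. In IR cells, C6 was not called higher without DMSO replicate 1 (2.11, adjusted p = 0.110) or IR replicate 2 (1.18, adjusted p = 0.205). CBLN2 was not called there without DMSO replicate 1 (1.17, adjusted p = 0.0793), DMSO replicate 2 (1.08, adjusted p = 0.102) or IR replicate 2 (0.36, adjusted p = 0.213), nor SERPINA4 without DMSO replicate 1 (0.48, adjusted p = 0.252) or IR replicate 1 (0.675, adjusted p = 0.173). The lower call of LDLRAD4 in IR cells ended without any 1 of the DMSO or IR libraries, with an adjusted p between 0.0609 and 0.196. In CR cells the lower call of C6 ended without either DMSO library or CR replicate 1 (adjusted p between 0.0519 and 0.140), and that of CBLN2 without any 1 of the DMSO or CR libraries (adjusted p between 0.0611 and 0.0790). PNMA8A and RYR2 were called in both regimens under each omission. With edgeR on the recovered reads, however, PNMA8A was not called in CR cells (1.07, adjusted p = 0.0502). Nor were SERPINA4 (adjusted p = 0.133), CBLN2 (adjusted p = 0.0863) and LDLRAD4 (adjusted p = 0.0551) in IR cells or CBLN2 in CR cells (adjusted p = 0.0594). DESeq2 did not call SERPINA4 (adjusted p = 0.106) or CBLN2 (adjusted p = 0.0501) in IR cells either. SERPINA4 in CR cells was level with the parental libraries, at 0.390 and 0.520 CPM. CBLN2 in IR cells was not called higher against the parental libraries, which held 15.3 and 14.5 CPM.

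The same contrast was made in Huh7, whose libraries are shared with none of the Hep3B libraries. There 3551 genes were higher (23.6%) and 2641 lower (17.6%) in resistant than in DMSO cells. Both lines called 1428 genes higher, which is 51.0% of the Hep3B list and 40.2% of the Huh7 list, and 999 genes lower, which is 47.8% and 37.8%. The difference between the changes of the lines was called for 2324 genes with a more positive change in Hep3B than in Huh7 (15.5%) and 2457 with a more negative one (16.4%), whatever the size of either change. By list, the median change was -1.59 in Hep3B and -1.57 in Huh7 for cholesterol synthesis, and 1.38 and 1.55 for the integrated stress response. It was -2.87 and -4.57 for secreted hepatocyte proteins, -3.71 and -0.79 for oncofetal genes and 0.88 and 0.079 for hypoxia-induced genes. The difference of list medians between the lines was not tested.

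In 283 genes the lines were called in opposite directions and the difference itself was called, 169 of them higher in resistant Hep3B and lower in resistant Huh7. Opposite calls again fix a difference, and its size is given as a description. COL14A1, a collagen that associates with fibrils, was measured at 4.02 and 5.47 CPM with DMSO, 108 and 108 CPM in IR cells and 28.8 and 42.0 CPM in CR cells in Hep3B, and at 1582 and 1430.4 CPM in Huh7-DMSO against 45.3 and 23.3 CPM in Huh7-IR and 17.6 and 43.6 CPM in Huh7-CR cells. It rose in Hep3B by 3.45 ± 0.33 (SE, adjusted p = 7.16e-06) and changed by -5.60 ± 0.33 (SE, adjusted p = 5.92e-08) in Huh7. CYP2B6, a drug-metabolising cytochrome, was measured at 0.742 and 1.96 CPM with DMSO, 271 and 407 CPM in IR cells and 3.56 and 1.83 CPM in CR cells in Hep3B and at 5.49 and 14.5 CPM in Huh7-DMSO, 0.0497 and 0 CPM in Huh7-IR and 0.0773 and 0.0262 CPM in Huh7-CR cells, so that the lines differed by 7.20 ± 0.48 (SE). The rise in Hep3B lay in the IR libraries, and a CR library overlapped with DMSO. EVA1A, a gene linked to autophagy, was measured at 22.0 and 23.7 CPM with DMSO, 0.334 and 0.441 CPM in IR cells and 8.17 and 5.81 CPM in CR cells in Hep3B and at 0.869 and 1.65 CPM in Huh7-DMSO, 76.9 and 52.9 CPM in Huh7-IR and 39.2 and 43.5 CPM in Huh7-CR cells, a difference of -7.41 ± 0.32 (SE). Its fall in Hep3B was deeper in IR cells. The cell surface protease gene ADAM19 was measured at 13.3 and 13.3 CPM with DMSO, 1.18 and 0.355 CPM in IR cells and 18.5 and 12.1 CPM in CR cells in Hep3B, so that its call rested on the IR libraries, and the lines differed by -5.99 ± 0.38 (SE). CD47 was measured at 110.3 and 99.5 CPM with DMSO, 40.5 and 58.7 CPM in IR cells and 36.7 and 35.9 CPM in CR cells in Hep3B and at 5.70 and 6.52 CPM in Huh7-DMSO, 148 and 149.9 CPM in Huh7-IR and 112 and 109 CPM in Huh7-CR cells, a difference of -5.48 ± 0.24 (SE). SCIN, an actin-severing protein, was measured at 1.34 and 0.946 CPM with DMSO, 4.16 and 3.82 CPM in IR cells and 1.80 and 2.30 CPM in CR cells in Hep3B, where it was called at 0.87 ± 0.32 (SE, adjusted p = 0.041). That call ended when any 1 of the 6 libraries was left out, with an adjusted p between 0.0601 and 0.225, and against parental cells (0.056, adjusted p = 0.924), while the lines differed by 6.63 ± 0.45 (SE).

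**Figure D5:**
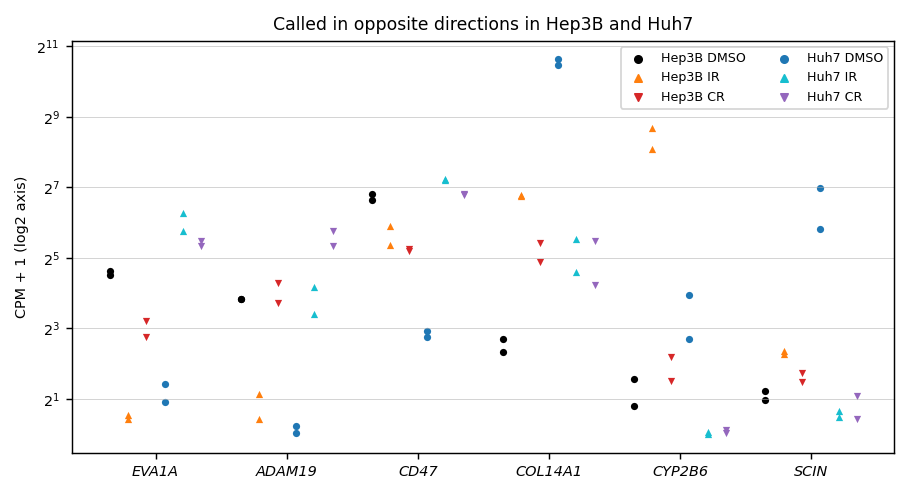
Level of 6 genes called in opposite directions in the resistant cells of the 2 lines, as CPM + 1 on a log2 axis, 1 point per library. COL14A1 lies at 4.02 and 5.47 CPM in Hep3B-DMSO and at 1582 and 1430.4 CPM in Huh7-DMSO libraries, and the resistant libraries of both lines lie between them.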

How the data were processed

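Poly(A) RNA of 16 libraries, 2 for each of 8 groups, was sequenced by the authors, and per the labels reads were aligned to hg19 with STAR; the study's methods give read counts over RefSeq exons. The deposited table holds CPM, a gene's reads scaled to the library's total of reads assigned to genes. The labels name a stranded poly(A) kit and another sequencer than the methods, which also state biological triplicates, whereas 2 libraries per group were used here. Low values fell on whole multiples of 1 read in 100% of cases (tolerance 0.05 reads), so whole reads were recovered. On these reads edgeR's quasi-likelihood test called 2652 genes higher and 2598 lower in resistant cells.

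Groups were taken from the sample labels. Symbols for 26111 of 26258 gene IDs came from a RefSeq table, and GRCh37 positions from a GENCODE annotation lifted to that build. The 15019 genes that reached 1 CPM in 2 or more of the 16 libraries were fitted in limma 3.58.1 (R 4.3.3) on log2(CPM + 1) with an intensity trend and 8 group means. A call required a Benjamini-Hochberg adjusted p below 0.05 and a change of at least 0.58. The procedure was tested on simulated data.

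The members and lists were chosen with earlier results of these data known. Named genes were the 12 higher and 12 lower called, non-overlapping genes of at least 10 CPM with the widest gap between the nearest resistant and DMSO libraries, up to 4 such genes per list, and a set of pathway genes named whatever their value. There were 43 lists, including markers of other cell types. Up to 3 genes per direction were named for the regimens and for the lines. Genes named only to spell out a small count, and those outside this rule, were chosen after their values were seen. Some list members are counted but not reported by name here.

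Alternatives were pseudocounts of 0.25 and 4 CPM, no filter, TMM and quantile scaling, edgeR 4.0.16 and DESeq2 1.42.0 on recovered reads, fits restricted to Hep3B, parental cells as the reference, leaving out each library, a replicate block, and, chosen after the data were seen, a GC adjustment.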

Additional observations from a re-analysis of the deposited data

Results flagged for a closer look

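The results given here stand out because 2 groups changed in opposite directions against the DMSO libraries of their line, and the difference between the groups was called in limma. Since the genes were selected for opposite calls, that test restates the selection and adds no support. Between the regimens in Hep3B, the difference in log2(CPM + 1), IR minus CR, was 4.74 for C6, 2.34 for CBLN2 and 2.26 for SERPINA4, each higher in IR cells. It was -3.46 for PNMA8A, -2.93 for LDLRAD4 and -2.64 for RYR2, each higher in CR cells. The IR libraries were unequal for C6 and CBLN2, since C6 stood at 19.9 CPM in IR replicate 1 and 114 CPM in replicate 2 and CBLN2 at 10.5 and 32.5 CPM. Each regimen is 1 line, so that a property of the regimen and a property of the line cannot be told apart.

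Between the lines, the resistant change in Hep3B minus that in Huh7 was 9.05 for COL14A1, 7.20 for CYP2B6 and 6.63 for SCIN, which were called higher in Hep3B and lower in Huh7. The Hep3B call of SCIN ended when any 1 of the 6 libraries was left out and against parental cells (0.056, adjusted p = 0.924), and CYP2B6 was higher in the IR libraries while a CR library overlapped with DMSO. The difference was -7.41 for EVA1A, -5.99 for ADAM19 and -5.48 for CD47, which went the other way. The starting levels of the lines were far apart in these genes, COL14A1 standing at 4.02 and 5.47 CPM in Hep3B-DMSO and 1582 and 1430.4 CPM in Huh7-DMSO cells and SCIN at 1.34 and 0.946 CPM and 55.8 and 126 CPM.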

How the results depend on the processing

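No count of called genes moved by more than 1.5 times under another pseudocount, no filter, TMM or quantile scaling, edgeR or DESeq2 on the recovered reads, a GC adjustment, fits on Hep3B libraries alone, or parental libraries as the reference, alone or with DMSO. These gave 2140 to 3029 higher and 1702 to 2702 lower genes, against 2798 and 2088, 3885 to 5316 calls in IR, 3989 to 5382 in CR, and 3994 to 5159 for the difference between the lines, which the fits on Hep3B alone do not give. The genes free of overlap numbered 5004 upward and 3719 downward. Leaving out 1 library can only keep or raise these counts, and gave 5216 to 5705 and 3919 to 4363. TMM or quantile scaling, a filter on the 6 libraries, or parental libraries added to the reference gave 3780 to 4787 upward and 2481 to 4275 downward. Both lowest counts came with the parental libraries added. Higher genes made up 57.3% of calls, and 49.8% with quantile scaling. The replicate number as a block gave 2789 higher and 2094 lower genes (2397 and 2394 with the GC adjustment). Replicates with the same number deviated together with correlations of only 0.038, 0.114 and 0.243, so the numbers were not taken to pair the samples, and among the genes named the block ended 1 call, SLC2A3 (1.95, adjusted p = 0.0504), and added CDH1. Of 212 named genes tested, 153 kept direction and call under all 21 alternatives. Leaving out 1 library ended the call of 31 and the parental reference that of 36. The sign turned in 2 genes: CA9 (0.36 with the parental reference, from -2.77 to 0.28 over the omissions of 1 library, the higher value without DMSO replicate 2) and COL4A5 (1.09 with the parental reference). It also turned for SERPINA4 in CR cells (0.083 with the parental reference). The causes were not tested. The 6 libraries, 2 a group, held at least 52520852 reads each. The parts of depth and of the spread between libraries in the precision were not tested.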

Other observations

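Lists that the report does not describe moved as follows. Of 29 YAP and TEAD targets, which respond to cell shape and density, 11 rose and 3 fell (TEAD4, LATS2 and ARHGEF17), against 9 and 1 with the parental libraries as the reference. MYOF, a membrane repair protein, was measured at 11.6 and 12.4 CPM with DMSO, 282 and 169 CPM in IR cells and 288 and 261 CPM in CR cells and rose by 4.24 ± 0.28 (SE, adjusted p = 5.22e-07). Of 25 TGF-beta pathway genes, 10 rose and 2 fell (TGFBR2 and TGFBR3). LTBP1, which binds latent TGF-beta, was measured at 30.5 and 60.3 CPM with DMSO, 474 and 449.6 CPM in IR cells and 487 and 439.7 CPM in CR cells and rose by 3.40 ± 0.29 (SE, adjusted p = 3.31e-06). Of 8 caveolae genes 5 rose and 1 fell, the coat protein gene CAVIN2, at 61.1 and 45.0 CPM with DMSO, 11.7 and 12 CPM in IR cells and 7.88 and 9.23 CPM in CR cells with a change of -2.27 ± 0.31 (SE, adjusted p = 0.000115). MYOF, LTBP1 and CAVIN2 were picked for being called and free of overlap with DMSO.

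Lists of hepatocyte metabolism were mixed and depended on the reference. Of 18 iron handling genes, 8 fell and 1 rose, and against the parental libraries 7 fell and 2 rose. The gene that rose was BMP6, a regulator of hepcidin, at 0.416 and 0.329 CPM with DMSO, 22.2 and 18.7 CPM in IR cells and 58.9 and 59.6 CPM in CR cells with a change of 4.71 ± 0.24 (SE, adjusted p = 7.68e-08). Of 17 urea cycle and amino acid enzymes, 6 fell and 2 rose (ARG2 and NAGS), while 4 fell and 5 rose against the parental libraries. CPS1, carbamoyl phosphate synthetase, fell by 3.32 ± 0.39 (SE, adjusted p = 3.78e-05), a call that ended against the parental libraries (-0.36, adjusted p = 0.503). Of 12 gluconeogenesis and glycogen genes, 4 fell (FBP1, PC, GBE1 and PPP1R3C) and 3 rose (PCK2, PYGB and UGP2), while none fell and 3 rose against the parental libraries. FBP1 was not called against parental cells (-0.29, adjusted p = 0.284), nor was PC (-0.40, adjusted p = 0.291), which was not called either without DMSO replicate 1 (-0.97, adjusted p = 0.0803) or 2 (-0.96, adjusted p = 0.0848), and PCK2 lost its call without DMSO replicate 1 (1.03, adjusted p = 0.0739). Of 30 respiratory chain subunits, 5 fell, among them NDUFA2, NDUFV1, SDHC and COXFA4 (older symbol NDUFA4), and none rose, the share that fell being near the 13.9% of all genes. NDUFV1 was not called against parental cells (-0.26, adjusted p = 0.266).

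Genes of drug handling were divided, with 3 of 14 drug metabolism genes higher (UGT1A1, UGT1A9 and UGT2B15) and 5 lower (CYP1A1, CYP27A1, UGT2B4, SULT2A1 and POR), against none and 3 with the parental libraries as the reference. UGT1A1 and UGT1A9 share most of their exons, so that their reads may have been shared. CYP1A1 lost its call without DMSO replicate 1 (-1.95, adjusted p = 0.102) and CYP27A1 without DMSO replicate 2 (-1.03, adjusted p = 0.0555) and against parental cells (-0.28, adjusted p = 0.445). Of 13 transporters 4 rose (ABCB1, ABCC1, ABCC3 and ABCC4) and 4 fell (ABCC5, ABCC6, ABCG2 and SLC51B). ABCB1, the efflux pump P-glycoprotein, was measured at 42.5 and 48.0 CPM with DMSO, 167 and 177 CPM in IR cells and 43.7 and 121 CPM in CR cells and rose by 1.29 ± 0.34 (SE, adjusted p = 0.00923), although CR replicate 1 overlapped with DMSO. ABCG2, another efflux pump, was measured at 12.9 and 10.3 CPM with DMSO, 2.15 and 4.59 CPM in IR cells and 1.93 and 2.65 CPM in CR cells and fell by 1.75 ± 0.43 (SE, adjusted p = 0.00578). ABCC6 lost its call without DMSO replicate 2 (-1.52, adjusted p = 0.0581) and against parental cells (-0.69, adjusted p = 0.198), as did SLC51B against parental cells (-0.48, adjusted p = 0.214). Of 16 BCL2 family genes 3 rose (BCL2, BCL2L1 and BIK) and none fell, a share of higher genes like the 18.6% of all genes, and 6 rose against the parental libraries. BCL2 lost its call when any of DMSO replicate 1 or 2, IR replicate 1 or CR replicate 1 or 2 was left out (adjusted p between 0.0526 and 0.145), and BIK without DMSO replicate 1 (0.67, adjusted p = 0.0834). Of 13 metallothionein and zinc transport genes, 1 rose (MT2A) and 2 fell (SLC30A10 and SLC39A4), beside 18.6% higher and 13.9% lower of all genes. SLC39A4 lost its call without DMSO replicate 2 (-0.70) or CR replicate 2 (-0.74) and against parental cells (-0.34, adjusted p = 0.35).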
